A study of Mus musculus with 8 samples.

Results

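NF-kB is a family of transcription factors that switches on inflammatory, survival and growth genes. The 10 genes described here, picked by symbol from the 27998 genes counted in the series, encode its 5 subunits (Nfkb1, Rel, Rela, Nfkb2 and Relb) and 5 ankyrin-repeat regulators (Nfkbia, Nfkbib, Nfkbie, Nfkbiz and Bcl3). Their RNA was counted in single microglia, the macrophages that reside in brain and spinal cord, sorted by YFP from the lumbar cord of C57BL/6 mice. The 4 control libraries came from Cx3cr1-yfp-creER/+ mice that were naive or at day 1, day 2 or day 3 after bilateral sciatic nerve transection, an injury after which microglia of the lumbar cord divide. The 4 A20 cKO libraries came from Cx3cr1-yfp-creER/+; Tnfaip3 fl/fl mice at the same time points, in which Cre activated by tamoxifen acts on the gene for A20, a brake on NF-kB signalling. Mice of both genotypes therefore carried YFP and creER at 1 copy of Cx3cr1, the Cre can act in any cell that expresses Cx3cr1, and the labels give neither age nor which animals received tamoxifen. Each library pooled the cords of several animals, and each of the 8 groups had 1 library without a replicate.

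In resting cells, NF-kB subunits are held in the cytoplasm by the inhibitors IkBalpha, IkBbeta and IkBepsilon, the products of Nfkbia, Nfkbib and Nfkbie. Kinases that are switched on by cytokine and pattern recognition receptors mark these inhibitors for degradation, and the freed subunits enter the nucleus, where they also switch on Nfkbia and other genes of the family. A20, the product of Tnfaip3, edits ubiquitin chains upstream of those kinases and so restrains the signal. Much of this control acts on proteins, which RNA counts do not show.

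Levels are the unique molecular identifiers (UMIs, 1 for each captured RNA molecule) of a gene, summed over the kept cells of a library and scaled to the same total in every library as CPM, the usual counts per unit of library depth. Ratios are log2 ratios of these levels, and ranges in parentheses are 95% intervals. The intervals cover counting error only, and with 1 library per group no test between groups was possible and no p-value is given. The libraries held 1648400 to 15817426 UMIs over 579 to 3585 barcodes, and 14626 of 14883 barcodes were kept.

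The microglial markers P2ry12 and Tmem119 were found in at least 90.1% and 96.2% of the kept cells of every library, and the summed level of 5 markers of other macrophages and monocytes was 1.07 to 3.63 CPM. The libraries fell into a set of 5 and a set of 3. Control day 3 and the 4 A20 cKO libraries shared 256 cell barcodes in 10 pairs, where 45.6 were expected at the median rate of all 28 pairs, while the 15 pairs with 1 library from each set shared 98 with 129.8 expected. By pair, the number shared was 2.31 to 28.8 times that expected within the set of 5 and 0.340 to 3.76 times across the sets. Across the sets it was highest for control naive with A20 cKO day 1, 5 against 1.33, and with A20 cKO day 3, 3 against 0.827. The 5 libraries that share barcodes, called linked below, also held Ttr, a choroid plexus gene, at 126 to 397 CPM and 3 neutrophil genes at a summed 18.5 to 32.0 CPM, and in the other 3 libraries both were at 0. Comparisons within the linked set or within the other 3 are therefore given first, and every comparison of A20 cKO with control at naive, day 1 or day 2 crosses the sets, so that genotype and set cannot be told apart in it. Tnfaip3 itself stood at 20.3 CPM (17.2–23.9) in control day 3 and at 67.7 CPM (57.9–78.6) in A20 cKO day 3. These 3′ tags need not come from the part removed by Cre and do not check the deletion, so genotype below means the label of the library.

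Of the 10 genes, 7 had a promoter sequence in the RefSeq table (GRCm38.p6, 250 bases before to 50 after a start of transcription), which gave 9 windows, and Nfkb1, Relb and Nfkbiz had none. The kappaB consensus, a word of 10 bases that NF-kB dimers bind, was searched on both strands. It was found in 7 of these 9 windows, belonging to Nfkb2, Rel, Nfkbia, Nfkbie and Bcl3, against 2779 of all 32851 promoter windows (8.46%). More than 1 of the 7 windows belonged to Nfkb2, and 2 of its windows overlap and hold the same match. By gene, 5 of the 7 with a sequence had a match. No share by gene over all promoters is at hand, and the 8.46% by window cannot be set against this count. The windows of Rela and Nfkbib had no match. The windows are given for Nfkb2, for which only 1 is printed, and Nfkbie, which were at least 2-fold higher in A20 cKO day 3 than in control day 3, Nfkbia, which was higher by less than that, and Rel and Rela, which were not higher, 1 with matches and 1 without. Bcl3, with 1 match, was not higher beyond counting error either. Capitals mark the matches, and the sequences read along the gene's own strand.
Nfkb2, chr19:46304487-46304786, plus strand: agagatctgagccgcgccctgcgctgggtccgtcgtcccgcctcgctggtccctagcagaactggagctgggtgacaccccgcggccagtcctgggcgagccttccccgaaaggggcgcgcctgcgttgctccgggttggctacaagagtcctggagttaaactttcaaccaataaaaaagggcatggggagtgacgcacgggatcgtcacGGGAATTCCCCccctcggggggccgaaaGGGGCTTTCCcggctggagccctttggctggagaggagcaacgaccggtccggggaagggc
Nfkbie, chr17:45555450-45555749, plus strand: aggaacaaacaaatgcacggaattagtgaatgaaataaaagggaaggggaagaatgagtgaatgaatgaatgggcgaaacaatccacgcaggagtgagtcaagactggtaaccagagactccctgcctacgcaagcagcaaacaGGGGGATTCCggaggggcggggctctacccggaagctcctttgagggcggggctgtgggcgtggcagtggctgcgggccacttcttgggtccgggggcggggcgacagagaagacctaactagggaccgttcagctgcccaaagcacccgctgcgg
Nfkbia, chr12:55492598-55492897, minus strand: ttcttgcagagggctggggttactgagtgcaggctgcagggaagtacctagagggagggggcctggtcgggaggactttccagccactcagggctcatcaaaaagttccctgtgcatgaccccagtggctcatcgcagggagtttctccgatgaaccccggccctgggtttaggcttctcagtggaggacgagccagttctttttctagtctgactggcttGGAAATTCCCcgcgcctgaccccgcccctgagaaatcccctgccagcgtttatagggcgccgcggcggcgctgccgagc
Rel, chr11:23770920-23771219, minus strand: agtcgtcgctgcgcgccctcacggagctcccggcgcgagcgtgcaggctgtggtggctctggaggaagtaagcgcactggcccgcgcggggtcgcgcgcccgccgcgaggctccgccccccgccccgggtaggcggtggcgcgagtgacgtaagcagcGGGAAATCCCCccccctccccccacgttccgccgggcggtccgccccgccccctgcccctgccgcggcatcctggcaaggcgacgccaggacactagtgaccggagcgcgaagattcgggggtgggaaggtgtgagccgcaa
Rela, chr19:5637291-5637590, plus strand: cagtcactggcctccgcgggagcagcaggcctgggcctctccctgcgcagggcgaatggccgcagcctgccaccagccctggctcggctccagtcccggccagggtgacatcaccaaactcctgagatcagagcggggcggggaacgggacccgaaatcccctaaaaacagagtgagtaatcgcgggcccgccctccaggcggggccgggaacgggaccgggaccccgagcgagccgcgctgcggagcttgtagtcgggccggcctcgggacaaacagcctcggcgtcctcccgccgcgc
In the Nfkb2 window printed here the matches began 39 and 38 bases before the start, where they overlap, and again 11 bases before it. The matches began 106 bases before the start in Nfkbie, 29 bases before it in Nfkbia, and 92 and 91 bases before it in Rel, where they overlap. A match of letters describes the sequence and does not show binding.

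The genotypes were compared at the same day within the linked set only at day 3. There, Nfkb2, Relb, Nfkbie and Nfkbiz were at least 2-fold higher in A20 cKO than in control, and Nfkbia and Nfkb1 were higher by a smaller factor. Of the 9 genes with at least 100 UMIs in the 2 libraries together, 4 were at least 2-fold higher and 0 lower. Over all 8488 genes tested the same way, 1.86% were at least 2-fold higher and 2.40% lower. The median gene stood at −0.12, so that relative to it the ratios below are larger by that amount.

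Nfkb2 and Relb encode p100/p52 and RelB, the pair of subunits of the alternative NF-kB pathway. Nfkb2 (ENSMUSG00000025225, chr19:46304320-46312385) stood at 16.7 CPM (11.0–24.2) in control naive, 22.1 (19.7–24.6) at day 1, 11.1 (9.54–12.9) at day 2 and 8.78 (6.76–11.2) at day 3. In A20 cKO its level was 18.8 CPM (16.1–21.9) in naive, 29.7 (23.9–36.5) at day 1, 22.4 (17.4–28.4) at day 2 and 27.2 (21.1–34.4) at day 3. Control day 3 was the lowest of the 8 libraries, and its interval lay below those of all 4 A20 cKO libraries. The ratio of A20 cKO day 3 to control day 3 was 1.63 (1.12–2.14), from 69 and 64 UMIs. After thinning each cell to 2000 UMIs, which removes differences in depth, 5.02% of 538 cells had a UMI of Nfkb2 in A20 cKO day 3 and 1.81% of 1878 in control day 3, a difference of 3.21 points (1.51–5.45). Nfkb2 overlaps Psd on the opposite strand.

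Relb (ENSMUSG00000002983, chr7:19606217-19629438) stood at 23.4 CPM (16.6–32.2) in control naive, 53.2 (49.5–57.2) at day 1, 25.9 (23.5–28.6) at day 2 and 18.4 (15.4–21.8) at day 3. In A20 cKO it stood at 35.9 CPM (32.1–40.0), 47.9 (40.4–56.3), 39.2 (32.5–46.9) and 56.3 (47.4–66.3) in the same order. Control day 1 was as high as the A20 cKO libraries, and the other 3 control libraries were lower than all 4 of them, with the interval of control naive just overlapping that of A20 cKO naive. The ratio at day 3 was 1.61 (1.26–1.96). In thinned cells 11.5% had a UMI in A20 cKO day 3 and 3.30% in control day 3, a difference of 8.22 points (5.63–11.3). Before thinning the shares were 20.4% and 5.67%.

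Nfkbie (ENSMUSG00000023947, chr17:45555703-45563169), which encodes the cytoplasmic inhibitor IkBepsilon, stood at 11.8 CPM (9.44–14.6) in control day 3 and at 17.8 to 19.7 CPM in the other control libraries. In A20 cKO its level was 24.4 CPM (21.3–27.9) in naive, 25.8 (20.4–32.1) at day 1, 20.8 (16.0–26.6) at day 2 and 29.1 (22.9–36.6) at day 3. The difference in label thus rested on a low control day 3 as well as on a high A20 cKO day 3. The ratio between these was 1.30 (0.83–1.77), from 74 and 86 UMIs, and the share of thinned cells was 5.39% against 2.29%, a difference of 3.10 points (1.31–5.42).

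Nfkbiz (ENSMUSG00000035356, chr16:55811375-55838899) encodes IkBzeta, a nuclear cofactor that works with p50 on secondary response genes. It stood at 31.8 CPM (27.9–36.2) in control day 3, against 53.8 (49.1–58.9), 45.6 (38.3–53.8), 42.5 (35.5–50.5) and 76.3 (66.0–87.9) in A20 cKO naive, day 1, day 2 and day 3. Control day 3 was the lowest of the linked libraries and A20 cKO day 3 the highest. The ratio of these was 1.26 (0.98–1.54), and the share of thinned cells with a UMI was 6.46 points (3.61–9.74) above the 6.55% of control day 3.

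Nfkbia (ENSMUSG00000021025, chr12:55489410-55492647) encodes IkBalpha, the inhibitor that NF-kB itself resynthesises. Its level was 374 CPM (360.3–389) in control day 3, and 567 (551–583), 393 (371–416), 495 (470.4–521) and 558 (529.7–588) in A20 cKO naive, day 1, day 2 and day 3. The ratio at day 3 was 0.58 (0.48–0.67), a difference beyond counting error but under 2-fold. A UMI was found in 54.6% and 49.9% of thinned cells, whose difference of 4.70 points (−0.0909–9.43) did not exclude 0, and the mean in cells with a UMI was 1.99 UMIs in A20 cKO day 3 and 1.54 in control day 3. These means have no interval, so the parts of UMIs per positive cell and of the number of such cells were not told apart. Before thinning, with differences in depth left in, the shares were 75.1% (71.3–78.6) and 65.3% (63.3–67.4).

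The subunits of the classical pathway differed less between the labels at day 3. Nfkb1 (ENSMUSG00000028163, chr3:135584655-135691547), which encodes p105/p50, stood at 132 CPM (118–147) in A20 cKO day 3 and 94.6 (87.6–102) in control day 3, a ratio of 0.48 (0.29–0.67). Rela (ENSMUSG00000024927, chr19:5637483-5648130), which encodes the activating subunit p65, stood at 32.7 CPM (26.0–40.5) and 38.8 (34.4–43.6), a ratio of −0.24 (−0.62–0.11). Rel (ENSMUSG00000020275, chr11:23736847-23770970), which encodes c-Rel, stood at 112 CPM (99.5–126) and 129 (121–138), a ratio of −0.20 (−0.40–−0.01) that was −0.09 relative to the median gene. For Rela the ratio was −0.13 relative to the median gene, and the upper limit of 0.11 does not include that shift.

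Nfkbib (ENSMUSG00000030595, chr7:28758251-28767512), which encodes the inhibitor IkBbeta and overlaps Sirt2 and Ccer2 on the opposite strand, had a ratio of 0.27 (−0.12–0.64) at day 3. Bcl3 (ENSMUSG00000053175, chr7:19808462-19822770) encodes a nuclear partner of p50 and p52 homodimers and overlaps antisense genes. Its ratio was 0.10 (−0.72–0.82) from 21 and 57 UMIs, under the minimum for a count.

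**Figure D1:**
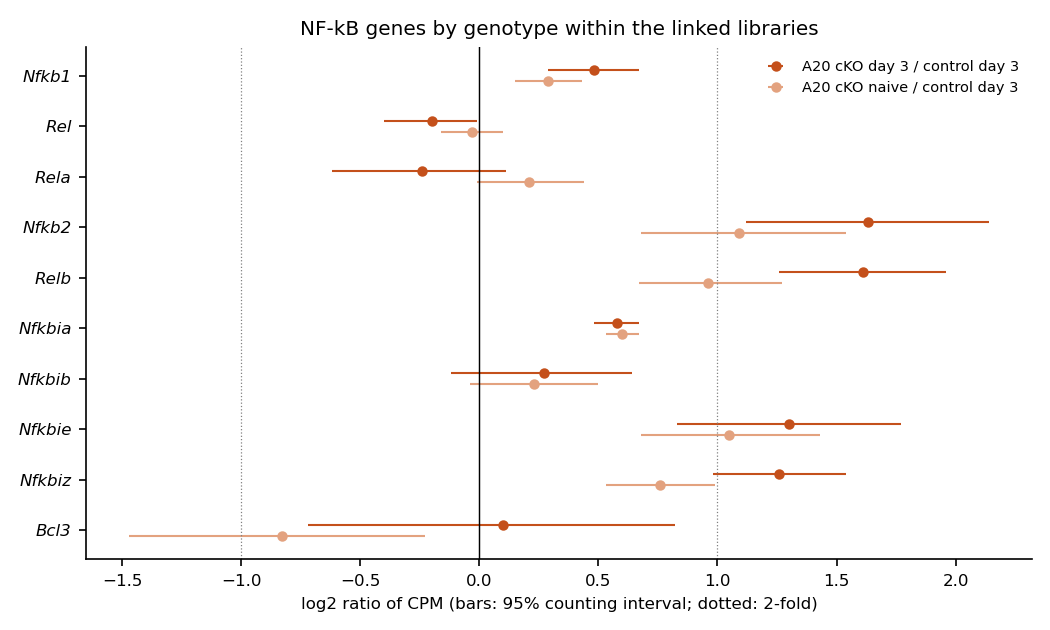
Log2 ratio of the level (CPM) of each gene in A20 cKO day 3 (dark) and A20 cKO naive (light) to control day 3, all 3 linked libraries. Bars are 95% counting intervals, and dotted lines mark a 2-fold difference. Nfkb2, Relb, Nfkbie and Nfkbiz lie to the right of the 2-fold line at day 3, and Rel and Rela lie near 0.

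The A20 cKO naive library, which had no injury, was also compared with control day 3, the one control library of the linked set, so here label and injury differ together and the control is the one used above. Of 9 genes tested, 2 were at least 2-fold higher and 0 lower, against 0.964% and 1.49% of all 9541 genes. Nfkb2 had a ratio of 1.09 (0.68–1.54) and Nfkbie of 1.05 (0.68–1.43), and Relb followed at 0.96 (0.67–1.27), Nfkbiz at 0.76 (0.53–0.99), Nfkbia at 0.60 (0.53–0.67) and Nfkb1 at 0.29 (0.15–0.43). Rel was at −0.03 (−0.16–0.10) and Rela at 0.21 (−0.01–0.44). Bcl3 was lower, with a ratio of −0.83 (−1.47–−0.23) from 39 and 57 UMIs, under the minimum for the count. The count of 2 depended on the deepest cells: without the 5% of cells with most UMIs it was 0, with Nfkb2 at 0.88 and Nfkbie at 0.87. At day 3 the count of 4 was the same without those cells.

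Markers also differed between control day 3 and A20 cKO day 3. P2ry12, a receptor of homeostatic microglia, was at 2191 and 845 CPM, though at 2755 CPM in A20 cKO naive, and Fcrls was found in 86.1% and 26.7% of the cells of the day 3 pair. Ttr was at 219 and 393 CPM, the 3 astrocyte genes at a summed 4.39 and 16.9 CPM and the 3 neuronal genes at 6.86 and 11.8 CPM. The 3 neutrophil genes were at a summed 23.1 and 18.5 CPM, the 5 genes of other macrophages and monocytes at 3.16 and 2.75 CPM, and the 4 oligodendrocyte genes at 139 and 170.4 CPM. Cd163 was at 0 in both libraries, and Mrc1, Lyve1 and Ly6g were at 0 in A20 cKO day 3. The part of these differences in the NF-kB ratios was not tested. Without barcodes found in more than 1 library the day 3 ratios were 1.66 for Nfkb2, 1.64 for Relb, 1.29 for Nfkbie and 1.30 for Nfkbiz.

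**Figure D2:**
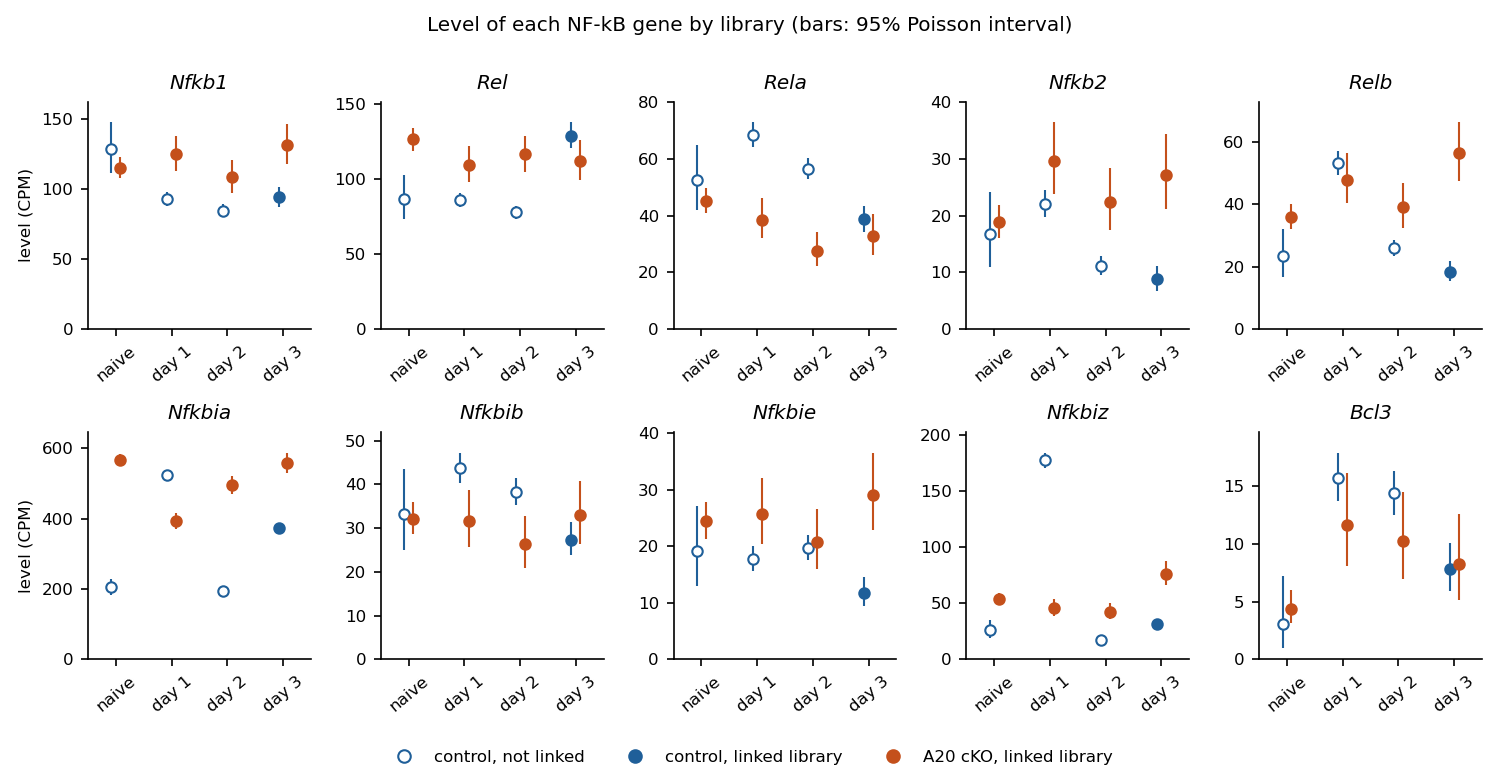
Level of each of the 10 genes (CPM, each panel with its own axis from 0) by library, with control in blue and A20 cKO in red. Filled points are the linked libraries, open points the other 3, and bars 95% Poisson intervals. Nfkbiz peaked at 177 CPM in control day 1, while Nfkb2 and Relb were lowest in control day 3.

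Control was followed after injury within the other 3 libraries, naive, day 1 and day 2. Each was a single library, so injury and library cannot be told apart in the ratios between them. At day 1, 4 of the 10 genes were at least 2-fold higher than in naive and 0 lower, against 3.82% and 7.25% of all 8866 genes tested, and the median gene was at −0.13. These 4 were Nfkbiz, Bcl3, Nfkbia and Relb. By day 2 all but Bcl3 were back near or below the naive level.

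Nfkbiz was at 25.9 CPM (18.7–35.0) in control naive, 177 (170.4–184) at day 1 and 17.4 (15.4–19.6) at day 2. Day 1 was far above both others, and above every A20 cKO library. The ratio of day 1 to naive was 2.76 (2.34–3.25), and that of day 2 to day 1 was −3.35 (−3.54–−3.17). A UMI was found in 5.98%, 27.5% and 3.28% of thinned cells, and in 6.87%, 45.1% and 7.14% of cells before thinning, so the peak was spread over many cells.

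Nfkbia stood at 205 CPM (183–228) in control naive, 523 (511–535) at day 1 and 193 (187–200.3) at day 2. Its ratio was 1.35 (1.19–1.51) at day 1 to naive and −1.43 (−1.50–−1.37) at day 2 to day 1. The shares of thinned cells were 25.9%, 57.3% and 29.3%. Naive and day 2 did not differ beyond counting error, with a ratio of −0.09 (−0.25–0.08).

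Relb had a ratio of 1.16 (0.71–1.69) at day 1 to naive and of −1.04 (−1.21–−0.86) at day 2 to day 1. Nfkb2 was at 0.38 (−0.16–1.03) and then −0.98 (−1.26–−0.72). Of the 10 genes, 3 were at least 2-fold lower at day 2 than at day 1 and 0 higher, against 1.83% and 3.80% of all 9982 genes.

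Bcl3 did not return to the naive level at day 2. It was at 3.09 CPM (1.00–7.20) in control naive, from 5 UMIs, then at 15.7 (13.7–17.9) at day 1 and 14.4 (12.5–16.3) at day 2, with a ratio of day 2 to day 1 of −0.13 (−0.41–0.14). The ratios to naive were 2.21 (1.10–3.99) and 2.08 (0.97–3.85), whose width comes from the 5 UMIs. It was the 1 gene of the 10 at least 2-fold higher at day 2 than in naive, and 0 were lower, against 5.92% and 6.28% of all 9279 genes. Bcl3 was found in 0.598%, 2.82% and 2.59% of thinned cells.

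The subunits of the classical pathway and the other 2 inhibitors moved little. Nfkb1 was at 129 CPM (112–148) in naive, 92.7 (87.7–97.9) at day 1 and 84.7 (80.2–89.4) at day 2, with ratios to naive of −0.48 (−0.69–−0.26) and −0.61 (−0.82–−0.39). Rela was at 52.5 CPM (41.9–64.9), 68.5 (64.2–73.0) and 56.5 (52.8–60.3), and Rel at 87.0 (73.2–103), 85.9 (81.1–90.8) and 77.9 (73.6–82.4). Rela was thus higher at day 1 by a ratio of 0.38 (0.06–0.72), and Rel differed by less than its counting error at both days. The ratio of day 1 to naive was 0.38 (−0.01–0.82) for Nfkbib and −0.13 (−0.65–0.48) for Nfkbie.

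**Figure D3:**
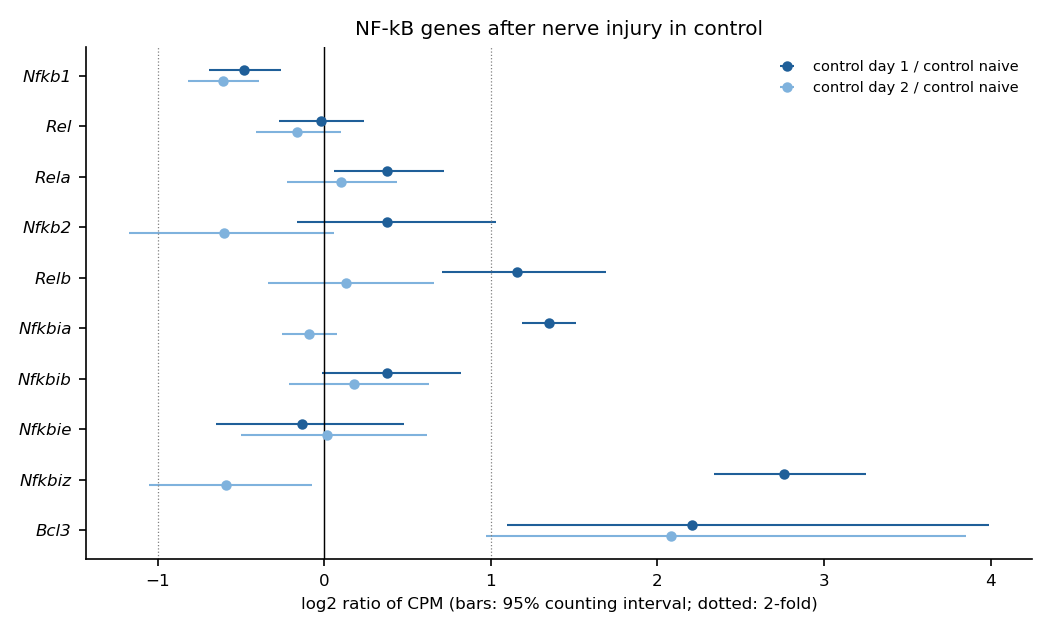
Log2 ratio of the level (CPM) of each gene in control day 1 (dark) and control day 2 (light) to control naive, with 95% counting intervals and dotted lines at a 2-fold difference. Nfkbiz, Nfkbia and Relb lie beyond 2-fold at day 1 and not at day 2, and Bcl3 lies beyond it at both.

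The early response genes, 22 genes such as Fos that cells switch on within minutes of many stimuli, were also highest at day 1. Their summed level was 2276 CPM in control naive, 30757 at day 1 and 3288 at day 2, and all 20 tested were at least 2-fold higher at day 1 than in naive (median ratio 4.65). In the linked set it was 4880.0 CPM in control day 3 and 7383, 2108, 1894 and 5957 CPM in A20 cKO naive, day 1, day 2 and day 3. At day 1 and day 2 in A20 cKO, when the list was low, Nfkbia was at 393 and 495 CPM and Nfkbiz at 45.6 and 42.5 CPM, below their naive levels of 567 and 53.8 CPM. Relb, at 47.9 and 39.2 CPM, and Bcl3, at 11.6 and 10.2 CPM, were above their naive levels of 35.9 and 4.37 CPM on the same days, and Bcl3 stayed high in control day 2 when the list did not. The ratios to A20 cKO naive of Nfkbiz at day 1, −0.24 (−0.52–0.04), and of Relb at day 2, 0.13 (−0.19–0.44), did not exclude 0. The part of the early response list in the ratios was not tested. With its genes left out of the library total, the day 1 ratios were 2.80 for Nfkbiz, 2.26 for Bcl3, 1.39 for Nfkbia and 1.21 for Relb.

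Control day 3 could be set only against libraries of the other set. Against naive, 0 of the 8 genes tested were at least 2-fold higher or lower (all genes 8.76% and 2.32%), and against day 2, 0 of 10 (13.1% and 2.69%). Nfkbia was higher than in naive by 0.87 (0.70–1.04) and Rel by 0.57 (0.31–0.84). Rela was lower by a ratio of −0.44 (−0.79–−0.07) and Nfkbie by −0.71 (−1.30–−0.05). Injury day and set cannot be told apart in these values.

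In A20 cKO, all within the linked set, none of the 9 genes tested was at least 2-fold higher or lower than in naive at day 1, day 2 or day 3. Over all genes, 1.56%, 2.86% and 1.92% were higher at these days and 1.39%, 2.65% and 2.00% lower. The 3 comparisons share the naive library. Smaller differences lay beyond counting error. Nfkb2 was higher at day 1 by 0.66 (0.27–1.04) and at day 3 by 0.53 (0.10–0.94), and Relb by 0.42 (0.12–0.70) and 0.65 (0.35–0.94) at the same days. Nfkbiz was higher at day 3 by 0.51 (0.26–0.75) and lower at day 2, with a ratio of −0.34 (−0.63–−0.06).

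Nfkbia was lower at day 1, with a ratio of −0.53 (−0.62–−0.44), and at day 2, with −0.20 (−0.28–−0.11), and at day 3 it was at −0.02 (−0.11–0.06). Rela was at 45.1 CPM (40.8–49.7) in naive, 27.7 (22.1–34.3) at day 2 and 32.7 (26.0–40.5) at day 3, with ratios of −0.70 (−1.06–−0.36) and −0.46 (−0.82–−0.12). Bcl3 was at 4.37 CPM (3.11–5.98) in naive and at 11.6 (8.05–16.1), 10.2 (6.94–14.5) and 8.26 (5.12–12.6) at days 1, 2 and 3. It had 39, 35, 31 and 21 UMIs in these libraries, under the minimum for the count, and ratios of 1.40 (0.70–2.10), 1.23 (0.50–1.94) and 0.93 (0.08–1.72). Bcl3 was thus lowest in the naive library of either genotype.

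The same-day comparisons of A20 cKO with control that cross the sets gave no single pattern. In naive, 2 of 9 genes were at least 2-fold higher, against 7.43% of all genes, and 0 lower (2.22%), with Nfkbia at 1.47 (1.31–1.63) and Nfkbiz at 1.04 (0.60–1.55). At day 1, 0 of 10 were higher (15.5%) and 1 lower (3.25%), which was Nfkbiz at −1.96 (−2.22–−1.71). At day 2, 3 of 10 were higher (10.7%) and 1 lower (4.66%), with Nfkbia at 1.36 (1.27–1.45), Nfkbiz at 1.29 (0.98–1.60), Nfkb2 at 1.02 (0.58–1.42) and Rela at −1.02 (−1.37–−0.70). Rel was at 77.9 to 87.0 CPM in the 3 unlinked libraries and at 109.6 to 129 in all 5 linked ones, control day 3 included, and Rela at 52.5 to 68.5 CPM and 27.7 to 45.1 CPM. The point values of Rel and Rela thus did not overlap between the sets, whatever the label, but the interval of control naive overlapped those of linked libraries for both genes.

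**Figure D4:**
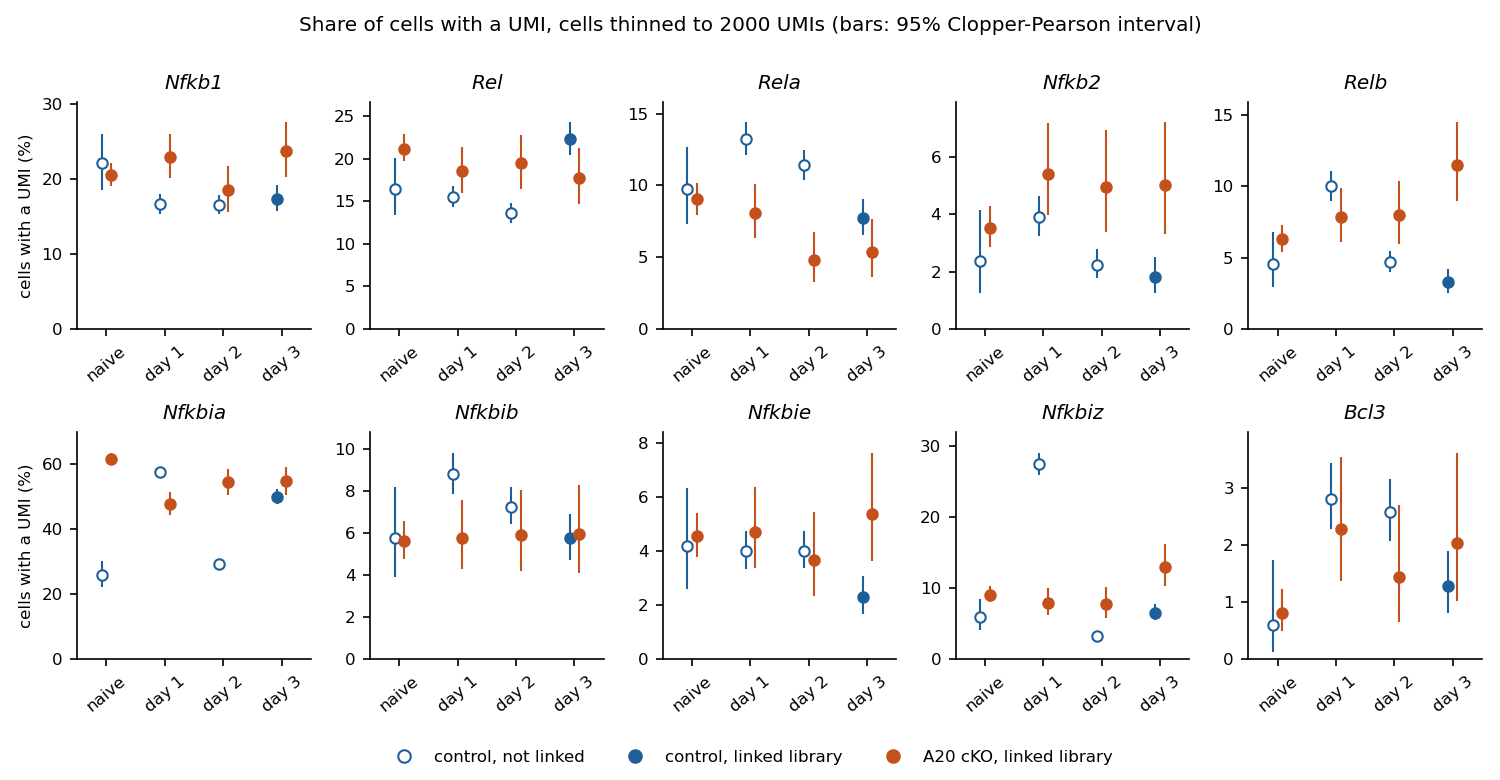
Share of cells (%) with at least 1 UMI of each gene, in cells thinned to 2000 UMIs, by library, with 95% Clopper-Pearson intervals. Each panel has its own axis from 0, and colours and fills are as in the plot of levels. In control, Nfkbiz was found in 27.5% of cells at day 1 and in at most 6.55% in the other control libraries.

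Summed over the 5 subunits, the level in control was 309 CPM in naive and 322, 256 and 289.8 CPM after injury in order of day, and in A20 cKO it was 342, 351, 315 and 360.4 CPM in that order. The 5 inhibitors and IkB-like genes summed to 286, 777, 283 and 453 CPM in control and to 682, 508, 595 and 705 CPM in A20 cKO. The regulators thus ranged more widely than the subunits, but Nfkbia made up 67.2% to 83.2% of their UMIs.

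Cells in which 3 or more of 18 core G2/M genes had a UMI, called dividing here, numbered at least 50 in 4 libraries. Bcl3 was at 15.3 CPM in the 180 dividing cells of control day 3 and 6.75 CPM in the other cells, a ratio of 1.21 (0.19–2.07), and at 16.3 and 3.77 CPM in A20 cKO naive, a ratio of 2.19 (0.69–3.32) that rests on 7 UMIs. In control day 2, with 871 dividing cells, the ratio was 0.39 (−0.01–0.78), and in A20 cKO day 2 it was −0.15 (−1.81–1.09). Nfkb1 was lower in dividing cells in all 4 libraries, with ratios of −0.39 to −0.13, of which the interval of 1 excluded 0. Nfkbia was lower in those of control day 2, with −0.13 (−0.24–−0.02), and of control day 3, with −0.30 (−0.49–−0.13). In A20 cKO naive and day 2 its ratios of 0.01 and −0.11 did not exclude 0. Relb, Nfkbie and Nfkbiz each had 1 interval below 0, and Nfkbib had 1 above it. Rel was higher in dividing cells of control day 3, by 0.44 (0.18–0.69), and lower in those of control day 2, by a ratio of −0.19 (−0.37–−0.02). Dividing cells were deeper in each of these libraries, with medians of 4886 to 6890.0 UMIs against 2799 to 3906 in the other cells.

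In thinned cells, those with a UMI of Nfkbia more often had one of Relb in all 8 libraries, by 0.315 to 9.09 points, and the interval excluded 0 in 2. In A20 cKO day 3, Relb was found in 15.6% of 294 cells with Nfkbia and 6.56% of 244 without, a difference of 9.09 points (3.76–14.3). That difference changed direction to −0.997 points in cells thinned to 1000 UMIs, so the counts are too sparse to read it.

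Over the 8 libraries, the 3 genes whose level was most like that of Nfkbia, by Pearson's r of log2(CPM + 1) among the 6178 genes that averaged 20 CPM or more, included Ythdc1 (0.943) and Spty2d1 (0.939). For Nfkb1 they were Gtdc1 (0.969), Il13ra1 (0.966) and Arap1 (0.965), and for Rel they included Ppp1r21 (0.989) and Mgea5 (0.988). An r of at least 0.9 was reached by 8 genes for Nfkbia, 18 for Nfkb1 and 521 for Rel. The 8 points are single libraries of 2 sets, between which the level of Rel differed.

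Around these 10 genes, the pathway was read in 3 lists. Among 35 NF-kB target genes, 27 were tested at day 3 within the linked set, and 14 were at least 2-fold higher in A20 cKO than in control and 0 lower, with a median ratio of 1.13 against −0.12 over all genes. Over all genes, 1.86% were higher and 2.40% lower. In every comparison a gene low in 1 library could reach the minimum of 100 UMIs through the other. The lists were also chosen with earlier results of these data known, so counts and medians describe them and test nothing. The cytokine subunit Il12b was at 54.3 and 0.549 CPM, a ratio of 6.46 (5.24–8.52) from 138 and 4 UMIs, the chemokine Ccl5 at 2508 and 34.9 CPM (6.17), and the adhesion molecule Vcam1 at 87.0 and 5.63 CPM (3.94). Of 25 kinases and adaptors, 24 were tested, with 1 higher, 1 lower and a median of −0.11. Of 20 other regulators of NF-kB, 16 were tested, with 2 higher, Tnfaip3 (1.74) among them, 0 lower and a median of 0.01.

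In A20 cKO naive against control day 3, 9 of 28 targets were at least 2-fold higher and 0 lower (median 0.61), with Ccl5 at 1435 CPM, and 0 of 24 kinases and adaptors in either direction. Over all genes, 0.964% were higher and 1.49% lower. In control day 1 against naive, 9 of 26 targets were higher and 2 lower (median 0.27), against 3.82% and 7.25% of all genes. The chemokine Ccl2 was at 502 and 7.41 CPM (6.03), from 7064 and 12 UMIs, Ccl3 at 892 and 87.0 CPM (3.35) and Tnf at 158 and 16.7 CPM (3.22), while Il6 was lower, at 13.5 and 29.0 CPM (−1.11). Nfkbid, another IkB-like gene, was at 29.2 and 11.1 CPM (1.35), the 1 of 17 other regulators past 2-fold. Birc2, which encodes the ubiquitin ligase cIAP1, was at 14.2 and 49.4 CPM (−1.80), 1 of 3 kinases and adaptors that were lower, of 24. The 2 lower targets, the 1 regulator and the 3 kinases and adaptors are too few to be set apart from the shares over all genes. By day 3 in A20 cKO, 6 of 28 targets were at least 2-fold above naive and 1 below (median 0.47), with Ccl4 at 662 and 209 CPM (1.66) and Ccl2 at 576 and 201 CPM (1.52). Over all genes, 1.92% were above and 2.00% below.

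**Figure D5:**
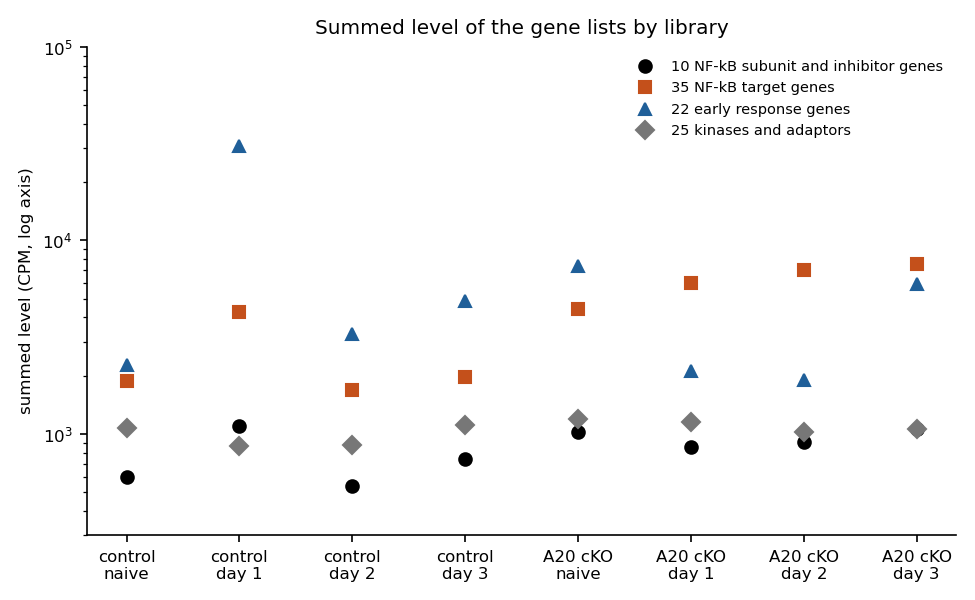
Summed level (CPM, log axis) of the 10 NF-kB genes and of 3 gene lists in each of the 8 libraries. The target genes lie at 4406 to 7543 CPM in the A20 cKO libraries and at 1679 to 4266 CPM in control. Of these sums, the single gene Ccl5 made up 1435 to 2756 CPM in A20 cKO and 6.26 to 34.9 CPM in control. Except at day 3, the same-day genotypes also lie in different sets of libraries. The early response genes peak at 30757 CPM in control day 1, and the kinases and adaptors stay between 865 and 1194 CPM.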

How the data were processed

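Single-cell RNA of YFP-sorted lumbar cord microglia was counted in 8 libraries with 10x Genomics 3′ chemistry, for which labels and methods name different kit versions. The files deposited by the authors hold UMI counts, not normalized, for barcodes called as cells. The submitters' processing notes name Cell Ranger 2.1.1 and mm10. The other deposited columns hold barcodes and gene names. Cells with at least 1000 UMIs, 500 genes and at most 10% mitochondrial UMIs were kept. No doublet caller was run, and an alternative left out the 5% of cells with most UMIs.

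Levels were summed UMIs as CPM with exact Poisson intervals. Log2 ratios had 0.5 UMIs added and exact conditional binomial intervals, shares Clopper-Pearson intervals and their differences Newcombe intervals, all at 95%. In 13 comparisons, genes whose UMIs in both sums reached 100 were tested against a fold of 2. Shares used cells thinned to 2000 UMIs, which left out 935 shallower cells. Coordinates are from GENCODE M21 (GRCm38). Pathway genes were named by 1 rule, at most 3 per list, direction and comparison past 2-fold with a mean of at least 20 CPM. Some genes that a rule named are not reported here. The members and lists were chosen with earlier results of these data known. Python 3.11.15, NumPy 2.4.6, SciPy 1.17.1 and pandas 2.3.3 were used. On simulated data for the day 3 genotype comparison, 95.6% of the intervals of 8493 genes covered the true ratio. The simulated counts varied by counting error only, as the intervals assume. The simulation thus checks the calculation and says nothing of variation between cells, animals or libraries.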

Additional observations from a re-analysis of the deposited data

Results flagged for a closer look

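For 3 of the 10 genes the ratio to naive lay on opposite sides of 0 in the 2 genotypes, with both counting intervals excluding 0. No share of all genes that did so is at hand, so the count is not read as a trait of these genes. Nfkbia at day 1 had a log2 ratio of 1.35 in control and of −0.53 in A20 cKO. Nfkb1 at day 3 was at −0.45 in control and 0.20 in A20 cKO, and Nfkb2 at day 3 was at −0.94 in control, from under 100 UMIs in all, and 0.53 in A20 cKO. With 1 library per group the difference between the genotypes was not tested. The control values at day 3 compare a linked library with an unlinked one, while the control values at day 1 and all A20 cKO values stay within a set.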

How the results depend on the processing

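Of the 82 log2 ratios of the 10 genes whose interval excluded 0, 0 changed sign under the 8 alternative settings, against 4 of the 48 others, and the count of genes past the fold kept to within 1.5 times except as follows. At a fold of 1.5, the count of lower genes was 3 for control day 2 against naive, 1 for control day 3 against naive, 2 for control day 3 against day 2, 2 for A20 cKO day 1 against control day 1 and 1 for A20 cKO day 2 against naive. At that fold the count of higher genes was 1 for control day 3 against naive, 3 for control day 3 against day 2, 5 for A20 cKO naive against control day 3 and 1 each for A20 cKO day 1 and day 3 against naive. With a minimum of 50 UMIs, 1 gene was higher in control day 3, A20 cKO day 1 and A20 cKO day 2 against naive, and with 200 UMIs 2 genes in place of 4 were higher in A20 cKO day 3 than in control day 3, since fewer genes were tested. Relative to the median gene, 1 gene was lower in control day 3 than in day 2, 1 higher in A20 cKO naive than in control naive and 2 lower in A20 cKO day 1 than in control day 1. Without the 5% of cells with most UMIs, 1 gene was higher in A20 cKO naive than in control naive and 0 than in control day 3, and with the mean of cell CPM 1 was in each. Without the cell filter 0 in place of 1 were lower in A20 cKO day 2 than in control day 2. Without thinning, differences of shares that changed direction were 2.78 and 1.78 points for Nfkb1 in control day 1 and day 2 against naive, 0.275 for Nfkbiz in control day 2 against naive, −0.620 and 0.493 for Rel in A20 cKO against control at day 1 and day 3, 2.93 and 3.36 for Nfkbia in A20 cKO day 2 and day 3 against naive and 0.813 for Rela in A20 cKO day 3 against naive. In cells thinned to 1000 UMIs the Nfkbia difference at day 3 was 0.907 points, and differences by detection of Nfkbia were −0.418 and −0.602 for Rel in A20 cKO naive and day 1 and −0.997 for Relb in A20 cKO day 3. Where no construction shows it, the cause was not tested. Depth limits Bcl3, Nfkb2 and Nfkbie most, with 5, 27 and 31 UMIs in control naive. No paired analysis was possible because each group had 1 library.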
